A study of Mus musculus with 8 samples.

Results

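Transcription start sites of 10 genes were examined in facial skin: 9 that mark dermal fibroblasts (Prrx1, Twist1, Twist2, Pdgfra, Pdgfrb, Fap, Dpt, Dcn and Lum) and Nes, which encodes nestin. The members were all clusters in the deposited table whose gene column held 1 of these 10 symbols. They came to 52 clusters, of 84475 in all, and the table held 16094 gene symbols. The samples were 4 lesional facial skins, with the genotype label Nectin-cre(+);Ikk2FL/FL, and 4 non-lesional facial skins with the genotype label Control, all from C57BL/6 mice at postnatal day 28. The kinase made from Ikk2 acts upstream of NF-κB, and FL/FL marks a floxed gene that Cre can delete. Genotype and lesion changed together. For the same Cre the series title has Nestin-cre, a spelling that differs from the labels, and nothing more is stated of the control alleles. No sample label matches the heading of any of the 8 columns of values, so no level was read from them. No difference between lesional and control skin was computed, and library depth is not analysed here. What follows describes where the clusters of these genes lie in a catalogue made for the whole series, without saying in which mice.

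Dermal fibroblasts build the collagen-rich matrix of the skin. In the face, much of the dermis comes from the neural crest, and Twist and paired-related homeobox factors act in that mesenchyme. Fibroblasts carry receptors for platelet-derived growth factors and secrete small leucine-rich proteoglycans that bind collagen fibrils. Nestin is an intermediate filament protein of neural progenitors that is also made by some cells of hair follicles and vessel walls. CAGE reads RNA from its cap, so a tag is taken to mark a place where transcription began, and nearby tags form a tag cluster. Clusters are called starts below in this sense, and whether each one is such a place was not tested. Spans below are differences between the deposited end and start. Positions are on mm9, as deposited.

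Each of the 10 genes had at least 1 cluster, and none of the 52 clusters was shared with another gene. Prrx1 had the most, at 16, followed by Dcn with 11, Pdgfra with 8 and Twist1 with 5. Fap and Lum had 3 each, Pdgfrb and Dpt had 2 each, and Twist2 and Nes had 1 each. The median was 3 clusters per gene, against 2 over all genes of the catalogue. At least 2 clusters were found for 8 of the 10 genes, against 54.3% of all genes. Of all genes, 1.18% had as many clusters as Prrx1 and 3.91% had as many as Dcn. Most of the 52 clusters were narrow: 33 (63.5%) spanned under 10 bp, against 48.3% of the 46376 clusters with a gene symbol. Prrx1, Dcn and Pdgfra held most of the 33, and Twist2 and Nes held none. Another 16 spanned at least 50 bp and 3 lay between. Each gene had at least 1 cluster of 50 bp or more, which held for 81.3% of all genes.

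**Figure D1:**
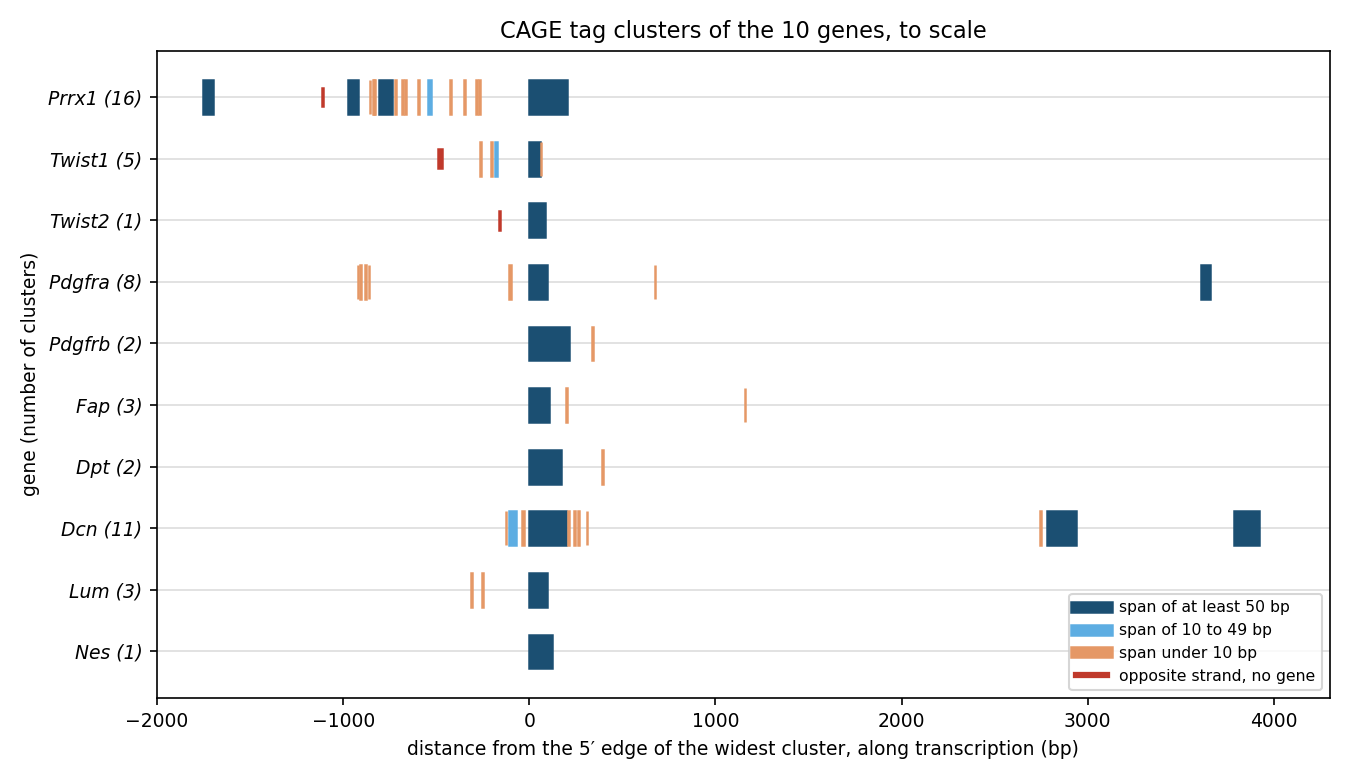
Each bar is a CAGE tag cluster drawn to scale, at its distance in bp from the 5′ edge of the gene's widest cluster, with transcription running left to right. Colours give the span, red bars are clusters of no gene on the opposite strand, and brackets give the number of clusters. Prrx1 and Dcn hold the most bars, and wide bars lie far from the widest cluster at Prrx1, Pdgfra and Dcn.

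Among the transcription factors, Prrx1, the paired-related homeobox factor of limb and craniofacial mesenchyme, had starts spread over 1955 bp on the minus strand of chromosome 1. Its widest cluster, of 200 bp from 165242654 to 165242854, was the one farthest downstream. Clusters of 51 bp (165243776 to 165243827) and 68 bp (165243594 to 165243662) lay 973 and 808 bp upstream of it. A further cluster of 56 bp (165244553 to 165244609) lay 1755 bp upstream. The other 12 spanned 2 to 14 bp and lay between the 51 bp cluster and the widest one. After joining clusters up to 100 bp apart, the 16 clusters made 4 groups, and the 51 and 68 bp clusters fell into the same group. In GENCODE M21, 4 of the 5 Prrx1 transcripts start within 42 bp of each other and the other starts 24486 bp downstream. A cluster of 3 bp without a gene lay on the opposite strand inside this stretch, at 165243963 to 165243966. Prrx2, the other gene of this small family, had 2 clusters, the wider of 160 bp.

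The Twist genes encode related basic helix-loop-helix factors that bind E-boxes as dimers. Twist1 had 5 clusters within 327 bp on the plus strand of chromosome 12. The widest, of 58 bp, ran from 34642700 to 34642758, and a sharper one of 13 bp lay 186 bp upstream at 34642514 to 34642527. Clusters of 2 and 3 bp lay 203 and 263 bp upstream of the widest, and another of 2 bp lay 4 bp beyond its downstream edge. Of all genes, 78.7% had a widest cluster at least as wide as that of Twist1, which puts it in the narrower part of the catalogue. Twist2 had a single cluster of 84 bp, from 93698026 to 93698110 on the plus strand of chromosome 1.

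Both Twist genes had a cluster without a gene on the opposite strand just upstream of their first start. At Twist1 it spanned 18 bp (34642212 to 34642230) and lay 207 bp away. At Twist2 it spanned 8 bp (93697861 to 93697869) and lay 157 bp away. Within 400 bp upstream of the first start, none of the other 8 genes had one. So 2 of 10 genes did, against 7.78% of all genes by the same rule. The first start of Twist1 is a 3 bp cluster 263 bp upstream of the widest, and from the widest the limit was exceeded. The opposite-strand cluster at Prrx1 lay downstream of its first start and upstream of its 51 bp cluster, and was not counted. Among the factors that pair with or block Twist proteins, Tcf4 had 21 clusters, Tcf12 had 11 and Tcf3 had 9, and of the inhibitors Id3 had 10, Id4 had 4, and Id1 and Id2 had 1 each. All 9 genes of that list had a cluster.

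The promoter letters of 6 of the 10 genes were at hand, from RefSeq on GRCm38.p6, as windows of 250 bases before to 50 bases after each annotated start. They were those of Prrx1, Twist1, Twist2, Pdgfra, Dpt and Nes. Because the clusters are on mm9, no cluster was placed on these windows, and positions are counted from the annotated start, with -1 the base before it. The longest run of letters that any 2 of the 6 windows shared was 16 bases, between Twist2 and Pdgfra, in the same orientation. It is shown first, in capitals, at positions -41 to -26 of Twist2 (chr1:91801361-91801460, plus strand) and -6 to 10 of Pdgfra (chr5:75152151-75152260, plus strand).
Twist2: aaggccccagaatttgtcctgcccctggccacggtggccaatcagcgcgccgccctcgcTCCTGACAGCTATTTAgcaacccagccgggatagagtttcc
Pdgfra: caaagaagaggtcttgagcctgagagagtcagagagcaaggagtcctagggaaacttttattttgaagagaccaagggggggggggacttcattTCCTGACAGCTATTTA
Among 32851 promoter windows of 27025 genes, these 2 were the only ones that held the run on either strand. The other 14 pairs shared at most 11 bases. Parts of the run were less rare: 1 of its 12-base parts occurred in windows of 5 genes, and 1 of its 10-base parts in windows of 56 genes. Measured from the first GENCODE M21 start of each gene, the run began 41 bases upstream at Twist2 and 47 bases upstream at Pdgfra. The comparison was made after the letters had been seen, and what binds the run was not tested.

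Motifs were searched on both strands. Capitals in the next stretches mark the matches, and the stretches were chosen to show where each kind of match lies in a gene with starts of its own kind: Twist1 (chr12:33957541-33957670, plus strand), Nes (chr3:87970993-87971092, plus strand), Dpt (chr1:164796613-164796682, plus strand) and Prrx1 (chr1:163313651-163313780, minus strand, written along the gene), which had no match.
Twist1: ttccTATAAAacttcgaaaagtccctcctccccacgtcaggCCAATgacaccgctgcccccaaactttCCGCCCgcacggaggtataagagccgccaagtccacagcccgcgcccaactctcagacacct
Nes: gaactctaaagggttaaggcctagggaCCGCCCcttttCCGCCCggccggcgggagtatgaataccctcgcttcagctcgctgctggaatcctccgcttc
Dpt: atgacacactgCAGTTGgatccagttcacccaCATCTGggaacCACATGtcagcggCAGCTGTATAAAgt
Prrx1: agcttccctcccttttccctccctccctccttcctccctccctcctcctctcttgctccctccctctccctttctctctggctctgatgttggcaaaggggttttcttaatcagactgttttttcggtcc
Twist1 held a TATAAA at -126, a CCAAT at -89 and a GGGCGG on the other strand at -62. Twist2 held a CCAAT at -63 and 4 matches of GGGCGG. Nes held 2 matches of GGGCGG, both on the other strand, at -73 and -62. Dpt held 7 matches of the E-box CANNTG, a number that 0.177% of all windows reached, and a TATAAA at 13. Pdgfra held 2 matches of CANNTG, a number that 39.6% of windows reached. For GGGCGG, 5.49% of windows had as many matches as Twist2 and 19.5% as many as Nes. The share at Dpt was thus the lowest of these. Prrx1 held none of the 6 motifs. The Prrx1 stretch was instead 80.8% C and T, against a median of 50% in the same positions of all windows. This measure was not planned, and the share of windows that reach the Prrx1 value was not computed. None of the matches overlapped a match of another motif.

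The share of all windows with a match was 13.6% for TATAAA, 37.4% for CCAAT, 35.7% for GGGCGG and 72.3% for CANNTG, against 2, 2, 3 and 2 of the 6 genes. TGANTCA, the letters of AP-1 sites, and a form of the NF-κB site (GGG, any 2 bases, then TTTCC) were in 7.81% and 1.63% of all windows and in none of the 6. That says only that these letters are not in these windows. Twist1, Twist2 and Nes were rich in CpG, with observed-over-expected ratios of 0.827, 0.803 and 0.702, near or above the upper quartile of all windows (0.750). Prrx1, Pdgfra and Dpt stood at 0.360, 0.256 and 0.226, below the median of 0.384.

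Of the receptors, Pdgfra, a tyrosine kinase found on most dermal fibroblasts, had starts over 4581 bp on the plus strand of chromosome 5. Its widest cluster spanned 93 bp, from 75548296 to 75548389. A group of 4 clusters of 2 to 5 bp lay 863 to 922 bp upstream, and 1 of 8 bp lay 107 bp upstream. A cluster of 2 bp began 676 bp downstream of the 5′ edge of the widest one. A second wide cluster, of 52 bp (75551903 to 75551955), began 3607 bp downstream of that edge. On the same strand, 2 clusters without a symbol, of 2 and 5 bp, began 1327 and 2803 bp downstream. In the GENCODE M21 gene models on GRCm38, 9 Pdgfra transcripts start at different places, and Pdgfra-202 starts 3607 bp after the first. The models that start 643, 1294 and 2784 bp after the first had clusters at distances within 33 bp of theirs. These clusters had the symbol at 676 bp and lacked it at 1327 and 2803 bp. GENCODE classes the model at 1294 bp as a retained intron, and those at 643 and 2784 bp as protein-coding. The models at 4541 and 9542 bp had their nearest cluster 934 and 5935 bp away by this measure. Distances were compared, not positions, because the builds differ, and whether the stretch has the same length in both builds was not tested. The 5′ edge of the widest cluster was set against the first annotated start. Whether these are the same place was not tested.

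Pdgfrb, the related receptor of pericytes and fibroblasts, had 2 clusters within 341 bp. Its main cluster, at 61204748 to 61204963 on chromosome 18 (plus strand, 215 bp), was the widest of the 52, and 1.78% of all genes had one as wide. Its other cluster spanned 2 bp and lay 124 bp downstream of the main one. All 7 genes of the ligand and receptor list had a cluster. Among the ligands, Pdgfa had 13 clusters, Pdgfc had 3, Pdgfb had 2 and Pdgfd had 1.

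Fap encodes a membrane peptidase known from activated fibroblasts. It had a cluster of 107 bp on the minus strand of chromosome 2, from 62411966 to 62412073, and 2 clusters of 3 bp each downstream of it. Upstream of Fap, on the same strand, lay a cluster of 177 bp without a gene symbol (62413554 to 62413731), with 1481 bp between it and the first Fap cluster. That span exceeded that of any Fap cluster, and 0.903% of the 38099 clusters without a gene were as wide. Whether it is a start of Fap was not tested. Of the related peptidases, Dpp4 had 14 clusters, Dpp8 had 4 and Dpp9 had 2, and no cluster was listed for Dpp6 or Dpp10.

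Among the matrix genes, Dcn, which encodes the collagen-binding proteoglycan decorin, had 3 wide start regions on the plus strand of chromosome 10. The first cluster, of 196 bp, ran from 96942182 to 96942378, and 7 narrower ones of 2 to 40 bp lay close around it. The second, of 155 bp (96944963 to 96945118), began 2781 bp downstream of the first, with 1 of 3 bp just upstream of it. The third, of 131 bp (96945970 to 96946101), began 3788 bp downstream of the first. In the GENCODE M21 models, Dcn transcripts start 2758, 2829, 3244 and 3728 bp after Dcn-201. Both downstream wide clusters thus lie within 60 bp of an annotated distance. As at Pdgfra, whether the 5′ edge of the widest cluster is the first annotated start was not tested. The start at 3244 bp is 463 bp from its nearest cluster. GENCODE classes the models at 2829 and 3728 bp as retained introns, and those at 2758 and 3244 bp as protein-coding. The summed span of the Dcn clusters, 547 bp, was the largest of the 10 genes. Dcn and Pdgfra were the 2 of 10 genes with neighbouring clusters at least 1000 bp apart, against 15.5% of all genes.

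**Figure D2:**
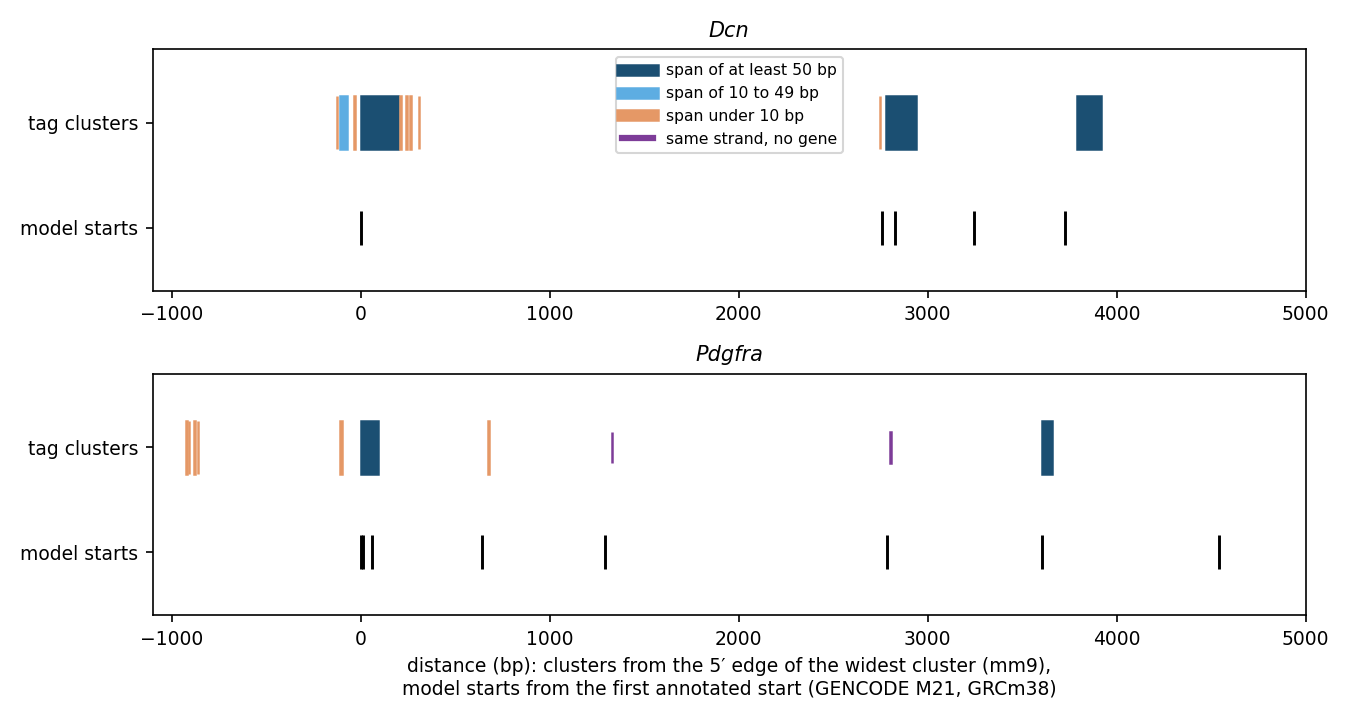
For Dcn (top) and Pdgfra (bottom), bars are tag clusters to scale, in bp from the 5′ edge of the widest cluster on mm9, purple bars are same-strand clusters of no gene, and black ticks are transcript starts of GENCODE M21, in bp from the first annotated start on GRCm38. Wide clusters 2781 and 3788 bp downstream at Dcn, and 3607 bp downstream at Pdgfra, lie near annotated starts at like distances, as do narrow bars at Pdgfra. The starts at 3244 bp of Dcn and 4541 bp of Pdgfra have no bar beside them, and the Pdgfra start at 9542 bp lies outside the axis.

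Lum, the gene of the related proteoglycan lumican, followed Dcn on the same strand of chromosome 10. Its widest cluster spanned 95 bp, from 97028391 to 97028486, and 2 clusters of 4 and 6 bp lay 311 and 252 bp upstream. Lum had a single cluster of at least 50 bp, against 3 at Dcn. All 10 small leucine-rich proteoglycan genes had a cluster, with 3 each for Lum, Bgn and Aspn and 1 each for Fmod, Prelp, Kera and Epyc. The cluster of Kera, the next gene after Lum, spanned 3 bp and that of Epyc spanned 5 bp, whereas the widest cluster of Aspn spanned 200 bp. These 3 genes were named after their values were seen. For Dpt, whose product dermatopontin binds decorin, the widest cluster ran from 166726745 to 166726915 on chromosome 1 (plus strand, 170 bp), and a second of 2 bp began 393 bp downstream.

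Nes had 1 cluster, of 124 bp, at 87774995 to 87775119 on chromosome 3 (plus strand). A cluster as wide was found for 42.4% of all genes. No other cluster lay within 1000 bp of it on either strand. The nearest with a gene were those of Crabp2, which encodes a retinoic acid binding protein, 18529 bp or more upstream on the same strand. Of 10 intermediate filament genes on the list with Nes, 5 had a cluster: Vim and Des had 10 each, Synm had 8, and Nes and Gfap had 1 each. The Gfap cluster spanned 4 bp. No cluster was listed for the neuronal genes Ina, Nefl, Nefm, Nefh and Prph.

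**Figure D3:**
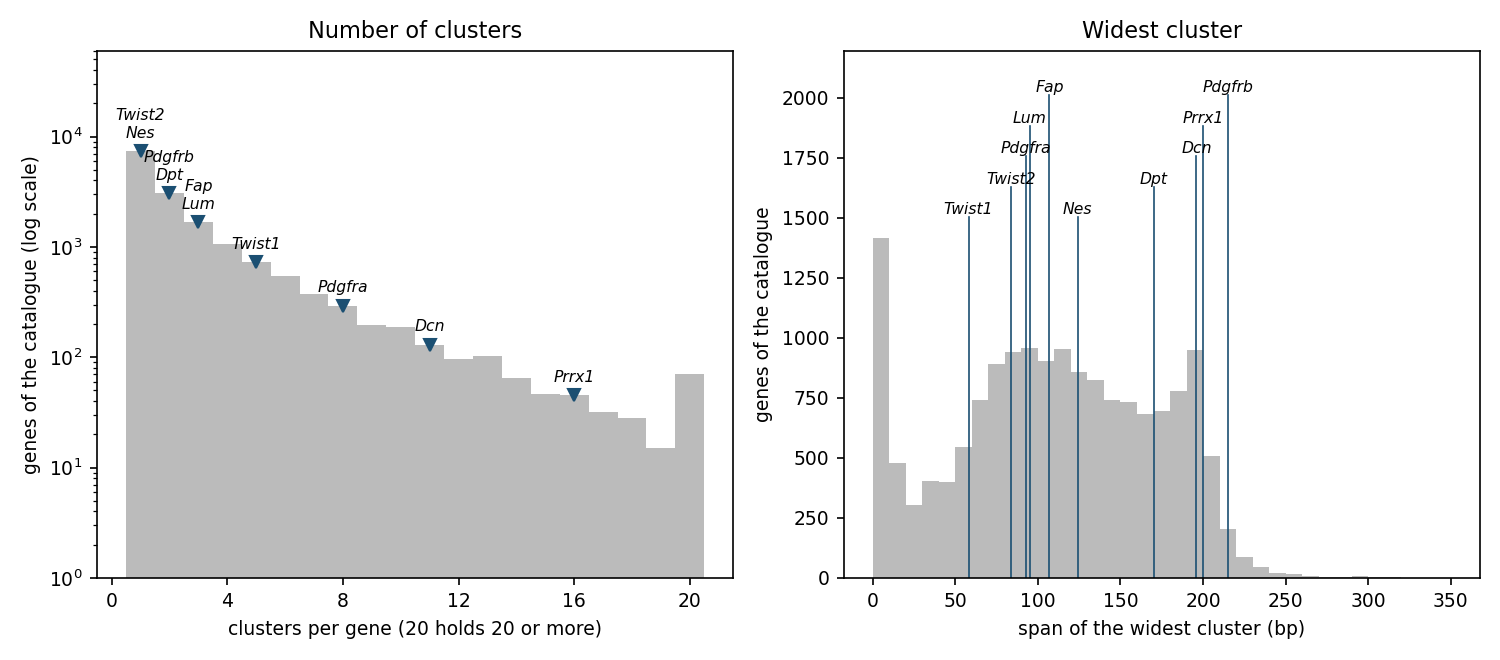
Grey bars count the 16094 genes of the catalogue by number of clusters (left, log scale, with the last bar holding 20 or more) and by span of the widest cluster in bp (right). Arrowheads and lines mark the 10 genes: they run from 1 cluster for Twist2 and Nes to 16 for Prrx1, and from 58 bp for Twist1 to 215 bp for Pdgfrb.

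By width, the 10 genes were close to the rest of the catalogue. The median span of their widest clusters was 115.5 bp, against 110 bp over all genes, whose quartiles were 67 and 159 bp. The genes fell in the order Pdgfrb (215 bp), Prrx1 (200), Dcn (196), Dpt (170), Nes (124), Fap (107), Lum (95), Pdgfra (93), Twist2 (84) and Twist1 (58). By the summed span of all clusters the order differed: Dcn (547 bp) and Prrx1 (434 bp) came before Pdgfrb (217 bp), Pdgfra had 168 bp, and these values of Dcn, Prrx1 and Pdgfra were over 1.5 times those of their widest clusters. How wide a cluster is for a given depth was not tested, so neighbours in this order are given as a description only. Neighbouring clusters of the same gene were separated by 42 gaps, with a median of 53 bp, and 29 gaps did not exceed 100 bp. Whether such neighbours are separate starts was not tested.

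Clusters without a gene also lay downstream of the starts, on the same strand and within the length that GENCODE M21 gives the gene. There were 22 of them, at 8 of the 10 genes, against 43% of the 14281 catalogue genes with a single gene model of that name. Of the 22, 4 spanned at least 10 bp. A longer gene has more room for such clusters, and genes of like length were not compared. Counted from the first named cluster, some of the 22 lay at 95% or more of the length at 4 genes, against 9.81% of genes. Such clusters lie near the annotated 3′ end. The largest was at Dcn, 38074 bp from the first Dcn cluster in a gene of 38534 bp (98.8%). It spanned 218 bp (96980130 to 96980348), more than any Dcn cluster that carries the symbol, and 0.0761% of clusters without a gene were as wide. Dpt had 3 of 2 to 32 bp at 98.1 to 98.6% of its length, Twist2 had 1 of 3 bp at 99.2% and Prrx1 had 1 of 13 bp at 96.3%. The first Prrx1 cluster lies 1755 bp upstream of its widest, and counted from the widest the 13 bp cluster falls below 95%. A cluster of 3 bp at Fap lay just short of the limit, at 94.9%. Pdgfrb and Twist1 had none over their length. The 95% limit was chosen after these positions were seen, the distances and lengths come from different builds, and the source of these 5′ ends was not tested.

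**Figure D4:**
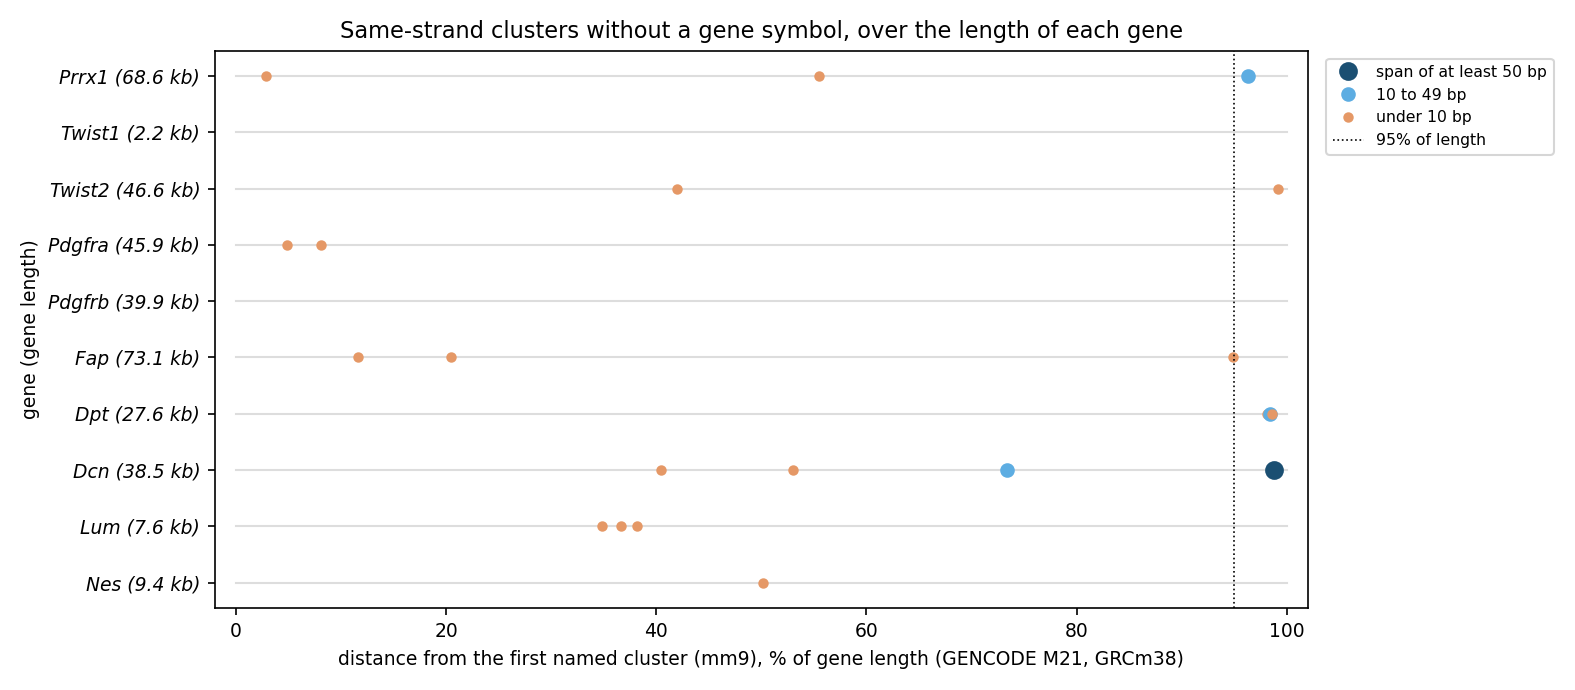
Dots are same-strand clusters without a gene symbol, at their distance from the gene's first named cluster on mm9, as a percentage of the gene length in GENCODE M21 on GRCm38 (length in brackets). Dot size and colour give the span, and the dotted line is at 95%: dots at Prrx1, Twist2, Dpt and Dcn lie beyond it, and the widest is at Dcn.

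All 13 fibroblast markers of the list had a cluster, led by Col1a1 with 24, Col1a2 with 23 and Prrx1 with 16. So did all 5 keratinocyte, 6 pericyte and smooth muscle, 4 endothelial, 4 Schwann cell, 4 skeletal muscle and 3 adipocyte markers. Starts of genes from many cell types were thus in the catalogue, and the cell type behind a cluster of Pdgfrb or Nes, which several of these cells can express, cannot be told apart here. All 10 genes of the dermal lineage list had a cluster, led by Dpp4 with 14 and Lrig1 with 5. So did 6 of 7 dermal papilla genes, led by Lef1 with 14, and Sox2 was the gene without one. The 13 fibroblast markers include all the members except Nes. The share of all annotated genes with a cluster was not computed, so counts for these and the other lists cannot be set against it.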

How the data were processed

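RNA 5′ ends were sequenced by CAGE in 4 lesional and 4 control facial skins. The submitters' processing notes name BWA, HISAT2 and mm9, without saying what each was used for, and the positions are taken to be on mm9. How tags were joined into clusters and tied to genes, and whether starts count from 0 or 1, is not given in the sources used here. Cluster position and gene symbol were read as the authors deposited them. The 8 value columns were not used, because no label ties them to a sample, and the planned tests between groups were not run. The members and lists were chosen with earlier results of these data known. All 10 members are named, with each cluster given singly or in a group of narrow ones, and genes of the lists by family or number of clusters, with exceptions stated. The 95% limit, the distances between clusters and annotated starts, the shared run and the wider opposite-strand limit were chosen after seeing the data. The C and T share of the Prrx1 stretch was not a planned measure. Rows with the same position and gene counted once. Distances between transcript starts and gene lengths came from GENCODE M21 (GRCm38), and no coordinate was carried between builds. Motifs were searched in RefSeq promoter windows. Counting functions were tested on simulated data. Python 3.11.15 with pandas 2.3.3 was used. No test was run, and no replicate error could be given.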

Additional observations from a re-analysis of the deposited data

How the results depend on the processing

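The count of 52 clusters rested on narrow and close ones. It was 19 with clusters of at least 10 bp, 28 with clusters of at least 5 bp, 23 after joining gaps up to 100 bp and 40 after joining gaps up to 20 bp. Prrx1 and Dcn then had 5 and 4 clusters of at least 10 bp, against 2 for Pdgfra and Twist1. With a limit of 500 bp, 4 genes had clusters far apart in place of 2. The share of all genes at 500 bp was not computed, so the 4 cannot be set against it. In the 100 bases before the start, TATAAA was in 0 of 6 windows and CANNTG in 1, against 5.56% and 34.4% of all windows. On the strand of the gene alone GGGCGG was in 1 of 6, against 23.4% of all windows. In all, 13 recomputed summary values were equal or within 1.5 times and 7 were not. The 13 include the 40 above and the 1000 bp limit for opposite-strand clusters. They also include values that could not differ. These are for motifs absent from the whole windows, and for CANNTG, which reads the same on both strands. Of the values of single genes, 27 were within 1.5 times and 23 were not. The 27 include values of Twist2 and Nes that could not differ, because each has 1 cluster. The 1000 bp limit for opposite-strand clusters was chosen after seeing the data. No paired analysis was possible, because the replicate numbers are not said to pair mice and none of the deposited levels could be tied to a sample. Alternatives that need levels (normalization, filter, tool, pseudocount, libraries left out, strongest cluster) were not run, and what depth limits was not analysed here.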

Other observations

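The spans of clusters in the whole catalogue had an edge near 200 bp, where the widest clusters of Prrx1 (200 bp) and Dcn (196 bp) lie. There were 890 clusters of 180 to 189 bp, 1065 of 190 to 199 bp, 538 of 200 to 209 bp and 219 of 210 to 219 bp. The cause was not tested. Whether these clusters end where the starts end, or where the clustering stopped, cannot be told from the table. Prrx1 also had a 2 bp cluster without a symbol, at 165242640 to 165242642, only 12 bp from its 200 bp cluster on the same strand. At Lum, 3 clusters of 2 to 7 bp without a symbol lay 2637 to 2889 bp downstream of the first Lum cluster.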
